A study of Felis catus with 3 samples.

Results

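SMTN and LMOD1 are 2 of the 21529 genes measured in 3 noninduced feline adipose-derived mesenchymal stem cell (ASC) lines. They were chosen by their FPKM values (fragments per kilobase of a transcript, scaled to the mapped reads of the library), because both were well expressed and higher in 1 line than in the others. Their levels in the 3 lines are therefore a description and carry no test. The lines, labelled Gray_Boy, Luna and SPF2, were primary cultures from the fat of 3 cats. All 3 were untreated, were grown in MEMα with 10% fetal bovine serum, and were harvested at passage 3 or 4. The study took fat from specific pathogen-free (SPF) and from client-owned cats, and the labels give no age. Each line had 1 library of poly-adenylated RNA, so the spread of repeat libraries within a line could not be measured.

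SMTN encodes smoothelin, an actin-associated protein of smooth muscle that has reached a contractile state. LMOD1 encodes leiomodin 1, which nucleates new actin filaments in smooth muscle cells. In smooth muscle, serum response factor and its coactivator myocardin drive genes of this kind, which encode the actin filaments, the myosin motor and the anchors that hold them. Fat contains vascular smooth muscle cells and pericytes around its vessels, and cultured stromal cells also build stress fibers, bundles of actin and nonmuscle myosin.

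SMTN (ENSFCAG00000001312, chromosome D3, 22178988 to 22201262 of Felis Catus 8.0) was at 44.7 FPKM in Gray_Boy, 112 FPKM in Luna and 56.3 FPKM in SPF2. The mean was 71.1 ± 36.1 FPKM (SD, n = 3 lines). Luna was the high line, and Gray_Boy and SPF2 lay closer to each other than either did to Luna. On the scale of FPKM + 1, which is used for all ratios between lines, SMTN in Luna was 2.48 times its level in Gray_Boy and 1.98 times its level in SPF2. Between SPF2 and Gray_Boy the ratio was 1.25.

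LMOD1 (ENSFCAG00000000446, chromosome F1, 40142051 to 40182601) was at 27.4 FPKM in Gray_Boy, 109 FPKM in Luna and 22.0 FPKM in SPF2, with a mean of 52.7 ± 48.6 FPKM. The same line was high, by a wider margin than for SMTN. LMOD1 in Luna was 3.87 times its level in Gray_Boy and 4.77 times its level in SPF2, whereas SPF2 was at 0.812 times Gray_Boy. The lines other than Luna thus had opposite orders for the pair, with SMTN slightly higher in SPF2 and LMOD1 slightly higher in Gray_Boy. In bulk RNA, more cells that express a gene and more RNA per cell cannot be told apart.

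**Figure D1:**
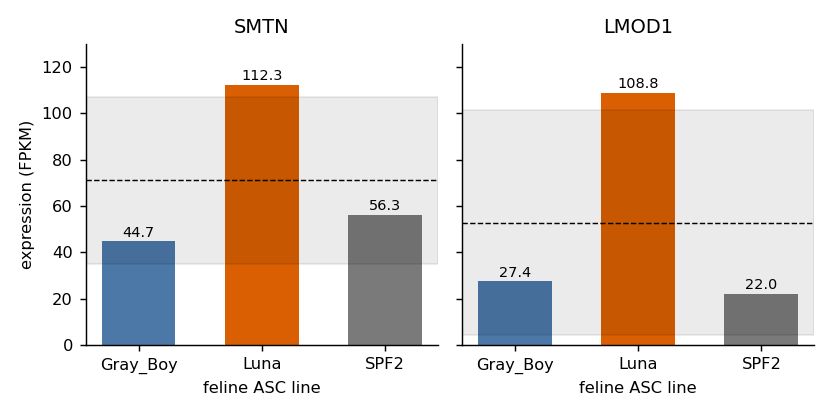
Expression of SMTN and LMOD1 in FPKM (y axis) in each feline ASC line (x axis, 1 library per line). Dashed lines and gray bands give the mean and SD over the 3 lines. Luna holds the highest value of both genes, 112 FPKM for SMTN and 109 FPKM for LMOD1.

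FPKM corrects for transcript length, so the levels of the genes can be set side by side. On FPKM without the added 1, SMTN was at 1.63 times the level of LMOD1 in Gray_Boy and 2.55 times in SPF2, but at 1.03 times in Luna, in which their levels nearly met. In Luna, SMTN ranked 821st and LMOD1 857th of all genes by FPKM, above 94.2% and 93.9% of the genes with a value over 0. In Gray_Boy the ranks were 2090 and 3313, and in SPF2 they were 1640 and 3913. Both genes were thus above the median expressed gene in every line.

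The gap between lines was read against that of other genes above a minimum mean, which were not matched to the levels of SMTN and LMOD1. A gene met the 1.5-fold criterion if its FPKM + 1 in Luna was at least 1.5 times that of each other line, or at most 1/1.5 for lower genes. Of 5324 genes with a mean of at least 15 FPKM over the lines, 296 (5.56%) met it as higher in Luna and 231 (4.34%) as lower. Both members met it, which follows from how they were chosen. Luna was also the line that stood apart across genes, since 1.58% of the 5324 genes met the same criterion as higher in Gray_Boy and 0.676% as higher in SPF2. Of all calls in Luna, 56.2% were higher, and this split depended on scale. It was 49.8% after quantile normalization. With the lines scaled to equal sums over all genes, it was 39.4% among the same 5324 genes. The median log2 difference of the 5324 then moved from 0.03 to -0.10. It was 37.2% after scaling every line to total 1000000, called total scaling below, where the larger unit let 6838 genes pass the same minimum. Luna also had the largest sum of FPKM and the largest steps among its lowest values. The part of library depth in these gaps was not tested.

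Ranked by the smaller of the Luna ratios, LMOD1 was in place 31 and SMTN in place 117 of the 5324 genes, within the upper 0.582% and 2.20%. At a 2-fold criterion, which 110 genes (2.07%) met, LMOD1 remained and SMTN was just short of it. Relative to the mean of the other lines on the log2(FPKM + 1) scale, the excess in Luna was 1.15 for SMTN and 2.10 for LMOD1, against a median of 0.03 over all 5324 genes. Taken relative to the median of all genes, the excess was 1.12 to 1.13 for SMTN and 2.07 to 2.12 for LMOD1. This range covers the scalings and pseudocounts tried, each with its own set of genes past the minimum. Scaling a line by a constant moves nearly all genes alike, so the narrow range follows in part from taking the median away. Without that step, total scaling gave an excess of 1.02 for SMTN and 1.99 for LMOD1. The gap between Gray_Boy and SPF2 was 0.33 for SMTN and 0.30 for LMOD1. Over all 5324 genes the median size of that gap was 0.13, and 16.9% of genes had a gap at least as large as that of SMTN. With no repeat library, none of these differences could be compared with the error within a line.

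Near the 1.5-fold limit, among genes with a symbol, JUP and CSNK1E were just inside it with smaller ratios of 1.54 and 1.52. LIMK2 and CTIF were just outside it, both with 1.49. After total scaling JUP and CSNK1E fell outside it, and with a pseudocount of 0.1 LIMK2 and CTIF fell inside it.

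**Figure D2:**
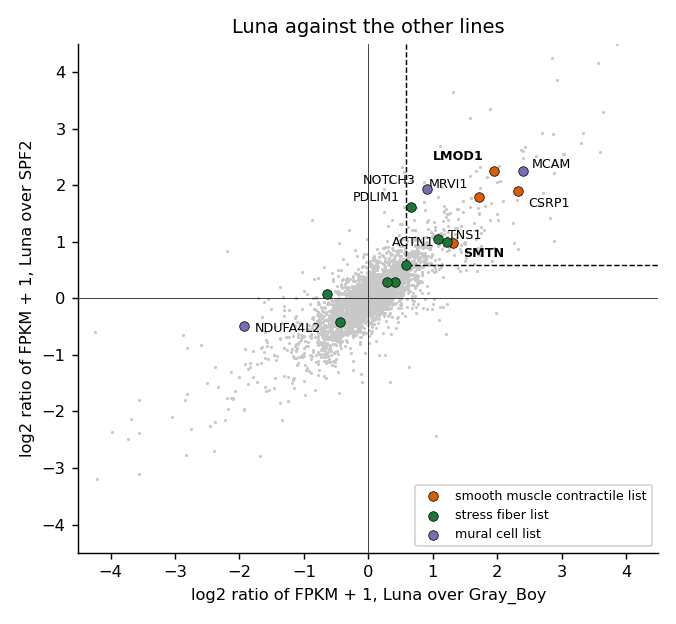
Log2 ratio of FPKM + 1 for Luna over Gray_Boy (x axis) and Luna over SPF2 (y axis). Gray points are genes with a mean of at least 15 FPKM (17 of 5324 lie outside the axes), colored points belong to 3 gene lists, and dashed lines enclose genes that met the 1.5-fold criterion as higher in Luna. SMTN and LMOD1 lie inside, with MRVI1, CSRP1, ACTN1, TNS1, PDLIM1, MCAM and NOTCH3.

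Symbols were available for 1811 genes, so only part of the smooth muscle program could be read. Of 26 listed genes of the contractile apparatus and its regulators, 7 had a symbol, the members included. The alpha actin of smooth muscle, its myosin heavy chain, calponin and transgelin were among the listed genes without one, and they were not analysed here. Of the 7, 6 had a mean of at least 1 FPKM, and 4 of them were higher in Luna by the 1.5-fold criterion and 1 lower. Among all genes with a symbol and this mean, 5.46% were higher and 4.86% lower. Apart from the members, 2 of 4 were higher. The median log2 difference of these 4 was 1.05, against 0.02 over all genes with a mean of at least 1 FPKM.

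CSRP1, a LIM domain protein that binds alpha-actinin and is abundant in smooth muscle, was at 193 FPKM in Gray_Boy, 967 FPKM in Luna and 258 FPKM in SPF2. Its ratio of Luna to the other lines was 4.99 and 3.73. MRVI1, an anchor of the inositol trisphosphate receptor and a target of cGMP-dependent kinase, was at 12.7, 44.1 and 11.9 FPKM in Gray_Boy, Luna and SPF2. MRVI1 reached a mean of 15 FPKM only through its value in Luna, unlike SMTN, LMOD1 and CSRP1. With the mean taken over the other lines, 4.45% of genes were higher in Luna, and these 3 were the measured genes of the list that remained.

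KCNMB1 encodes the beta subunit of the calcium-activated potassium channel of smooth muscle and met the criterion as lower in Luna, with 4.42, 1.10 and 7.74 FPKM. ITGA8, an integrin alpha chain, was at 0.4998, 1.61 and 1.82 FPKM and was not highest in Luna. The measured genes of the list therefore did not share 1 pattern. PPP1R12B, a targeting subunit of myosin phosphatase, stayed at 0.809 FPKM or less. Of 10 genes of the smoothelin, leiomodin and tropomodulin families, 1 other had a symbol. This was TMOD1, which caps actin filaments at the pointed end, at 2.15, 1.92 and 0.419 FPKM.

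The actin and stress fiber list held 11 measured genes, of which 8 had a mean of at least 15 FPKM, also without Luna. Of these 8, 3 were higher in Luna and 0 lower, beside 3.9% higher among all genes with a symbol at this mean. The alpha-actinin ACTN1, which crosslinks actin filaments, was at 296, 689 and 346 FPKM in Gray_Boy, Luna and SPF2. TNS1, a tensin that ties actin to focal adhesions, was at 82.9, 176 and 84.4 FPKM. PDLIM1, which binds alpha-actinin, was at 56.1, 89.1 and 28.4 FPKM and missed the criterion after total scaling, with a ratio of 1.43.

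The other measured genes of the list had smaller gaps. The nonmuscle myosin heavy chain MYH9 was at 492, 658 and 540 FPKM, and the filamin FLNC was at 201, 247 and 203 FPKM. SYNPO, an actin-associated protein, was at 5.48, 10.3 and 8.09 FPKM. These 3 were highest in Luna without meeting the criterion, and TNS2 and ABLIM1 were not. The second tensin, TNS2, was lowest in Luna with 43.1, 31.7 and 42.5 FPKM, and ABLIM1 was highest in Gray_Boy with 28.1, 17.6 and 16.7 FPKM. The kinase and the phosphatase of cofilin on the list also differed in order. LIMK2, a kinase of the actin-severing protein cofilin, was at 15.6, 23.8 and 15.5 FPKM. SSH2, which reverses that phosphorylation, was at 6.22, 4.12 and 4.72 FPKM. MYH14 was near 0, at 0.147 FPKM or less.

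For contraction signalling, 11 of 25 listed genes were measured, and 7 of them had a mean of at least 1 FPKM. Of these 7, 2 were higher in Luna and 0 lower, beside the 5.46% and 4.86% of all genes with a symbol at this mean. Of the 3 with a mean of at least 15 FPKM, 0 were higher. ARHGEF25, which links receptors to RhoA, was at 7.62, 18.4 and 6.02 FPKM, and the inositol trisphosphate receptor ITPR1 was at 11.5, 20.5 and 8.97 FPKM. The other 5 did not meet the criterion. ARHGEF17 was at 15.5, 18.4 and 15.2 FPKM, the calcium pump ATP2B4 at 70.6, 87.4 and 67.4 FPKM, and the phosphodiesterase PDE3A at 9.23, 14.7 and 11.2 FPKM. The adenylyl cyclase ADCY6 was at 17.8, 18.0 and 11.7 FPKM, and the natriuretic peptide receptor NPR1 at 2.35, 0.554 and 0.922 FPKM. NPR1 was thus lowest in Luna, and met the criterion as lower with a pseudocount of 0.1. The remaining 4 measured genes, AGTR1, RYR3, PDE1C and ADCY5, did not exceed 0.905 FPKM in a library.

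Of the transcription factors listed, TEAD2 and TEAD4 had a symbol. TEAD2 was at 24.0, 28.1 and 19.8 FPKM and TEAD4 at 24.6, 18.4 and 19.0 FPKM, and neither met the criterion.

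**Figure D3:**
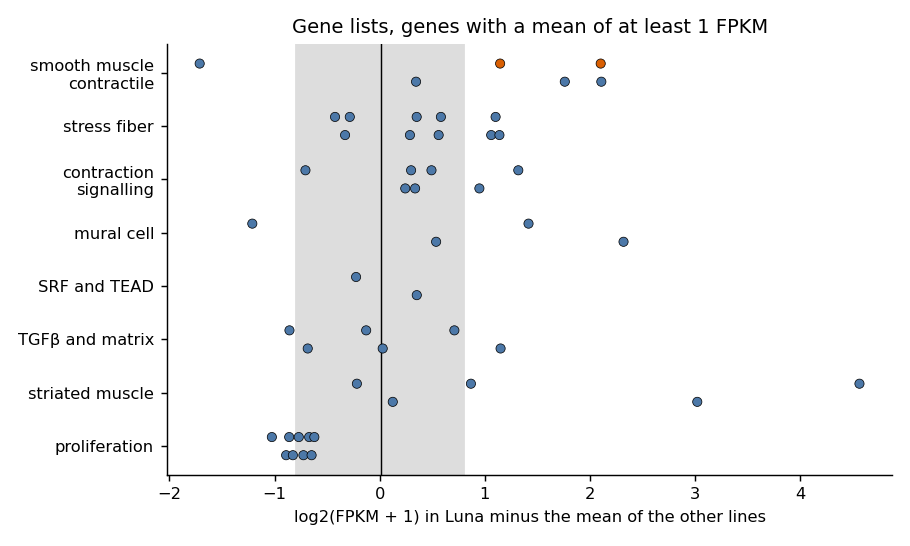
Difference of log2(FPKM + 1) between Luna and the mean of the other lines (x axis) for genes with a mean of at least 1 FPKM in 8 gene lists (y axis). Each point is a gene, SMTN and LMOD1 are orange, the vertical line is the median of all 11231 such genes and the gray band (-0.79 to 0.80) spans all but the lowest and highest 5% of them. In the smooth muscle list 4 of 6 points lie right of the band and KCNMB1 left of it. The 4 include SMTN and LMOD1, which were chosen as high in 1 line. All 9 points of the proliferation list lie left of the median line.

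Markers of other cells were read beside the pair. Of 12 mural cell markers, which mark smooth muscle cells and pericytes around vessels, 5 were measured and 4 had a mean of at least 1 FPKM. MCAM (CD146) was at 14.4, 79.9 and 16.0 FPKM and NOTCH3, a receptor of vascular smooth muscle, at 21.7, 41.5 and 10.2 FPKM, and these 2 of the 4 met the criterion as higher in Luna, beside 5.46% of all genes with a symbol at this mean. FOXS1 was at 2.75, 4.24 and 2.48 FPKM and met it with a pseudocount of 0.1 alone, with a ratio of 1.52. The remaining markers were not highest in Luna. NDUFA4L2 was highest in Gray_Boy, at 71.0, 17.9 and 25.7 FPKM, and met the criterion as lower in Luna after total scaling, and the pericyte marker RGS5 was at 0.293 FPKM or less. The summed level of the 5 was 110 FPKM in Gray_Boy, 144 FPKM in Luna and 54.4 FPKM in SPF2. Mural markers without a symbol, such as PDGFRB and CSPG4, were not analysed here. The part of mural cells in the levels of SMTN and LMOD1 was not tested.

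Of 34 markers of striated muscle 19 were measured, and these were mostly near 0. Of the 19, 14 were under a mean of 1 FPKM, and none of those was above 0.836 FPKM in a line. They include the troponins TNNC2, TNNT1 and TNNT3 and the creatine kinase CKM. The other 5 had a mean of at least 1 FPKM, and 2 of them met the criterion as higher in Luna. The share of all genes with a symbol at this mean that were higher was 5.46%. The 2 were natriuretic peptide B (NPPB), at 17.1, 177 and 25.7 FPKM, and the cardiac transcription factor NKX2-5. NKX2-5 was at 22.7 FPKM in Luna and listed at 0 in Gray_Boy and SPF2, so it reached this mean only through Luna. RYR1, the calcium release channel of skeletal muscle, was at 0.772, 4.31 and 3.77 FPKM, low in Gray_Boy and close between Luna and SPF2. MYH7B and ENO3 were at similar levels in every line, with means of 6.81 and 8.35 FPKM. The summed level over the 19 genes was 35.2 FPKM in Gray_Boy, 221 FPKM in Luna and 45.7 FPKM in SPF2, of which NPPB made up most in Luna.

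The stromal marker endoglin (ENG, CD105) was at 72.5, 117 and 73.9 FPKM, and was the single gene of 9 stromal markers with a symbol. It missed the criterion after total scaling, with a ratio of 1.45. The measured markers of leukocytes, endothelium and epithelium were near 0. Listed markers of these cells without a symbol, such as PTPRC, KDR and VWF, were not analysed here. Of 15 leukocyte markers 10 were measured, and none of the 10 exceeded 1.03 FPKM. The highest means were those of CORO1A, NCF1 and MAP4K1, and CD2 was listed at 0. The sum over the 10 was 2.29 to 3.44 FPKM. Of 12 endothelial markers 4 were measured. FLT4 was the highest, at 1.47, 1.66 and 2.02 FPKM, and the sum over FLT4, LYVE1, GJA5 and TEK was 1.92 to 2.36 FPKM. The 7 measured of 9 epithelial markers were at 0.994 FPKM or less, with sums of 0.794 to 1.53 FPKM and KRT5, KRT19, EHF and TP63 listed at 0. Of 10 adipocyte markers 2 had a symbol, RETN and PCK1, and both were listed at 0 in all 3 lines.

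Matrix genes linked to TGFβ did not share 1 direction. Of 6 measured, all with a mean of at least 1 FPKM, 1 met the criterion as higher in Luna and 1 as lower. Among all genes with a symbol at this mean, 5.46% were higher and 4.86% lower. COL5A1 was the higher gene (178, 480 and 261 FPKM) and THBS2 the lower one (173, 84.2 and 136 FPKM). EFEMP1 was highest in Gray_Boy, at 414, 89.3 and 49.8 FPKM. ADAM12, LTBP4 and ADAMTS12 did not meet the criterion, although ADAMTS12 met it as higher in Luna with a pseudocount of 0.1, with a ratio of 1.56.

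Genes of proliferation ran opposite to the pair. All 9 measured genes were lowest in Luna, also under the other scalings. The share of all genes that were lowest in Luna was not counted, so this order is a description. By the 1.5-fold criterion 5 of 9 were lower, beside 4.86% of all genes with a symbol at a mean of at least 1 FPKM. The median log2 difference of the 9 was -0.77. Cyclin B1 (CCNB1) was at 40.4, 24.6 and 51.3 FPKM, the ubiquitin carrier UBE2C at 36.8, 23.5 and 49.0 FPKM and TPX2, a spindle assembly factor, at 17.5, 12.8 and 24.2 FPKM. Of these, TPX2 did not meet the criterion. The summed level was 157 FPKM in Gray_Boy, 97.6 FPKM in Luna and 200 FPKM in SPF2. The part of proliferation in the levels of SMTN and LMOD1 was not tested.

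To find genes with the same pattern, the distance between centered log2(FPKM + 1) profiles over the 3 lines was computed for the 614 other genes with a symbol and a mean of at least 15 FPKM. With 3 lines, closeness is a description. Closest to SMTN were DDIT3 (distance 0.0620), ACTN1 (0.0805), COL5A1 (0.157), PRTFDC1 (0.215) and TNS1 (0.223). DDIT3, a transcription factor of the stress response, was at 19.3, 49.6 and 23.2 FPKM. PRTFDC1, related to a purine salvage enzyme, was at 10.8, 24.2 and 14.6 FPKM, and reached the mean of 15 FPKM only through Luna. Over all genes with this mean, named or not, 35 were as close to SMTN as TNS1.

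Closest to LMOD1 were TST (0.219), MRVI1 (0.319), MCAM (0.360), CSRP1 (0.508) and AMIGO2 (0.576). TST, a mitochondrial sulfurtransferase, was at 9.53, 33.8 and 5.97 FPKM, and AMIGO2, a cell adhesion protein, at 8.89, 62.8 and 7.43 FPKM. Both reached the mean of 15 FPKM only through Luna. A total of 29 genes were as close to LMOD1 as AMIGO2. The distance between SMTN and LMOD1 themselves was 0.898, so neither was among the 5 closest to the other. The pair shared the high line, which follows from how it was chosen, and the gap was wider for LMOD1.

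**Figure D4:**
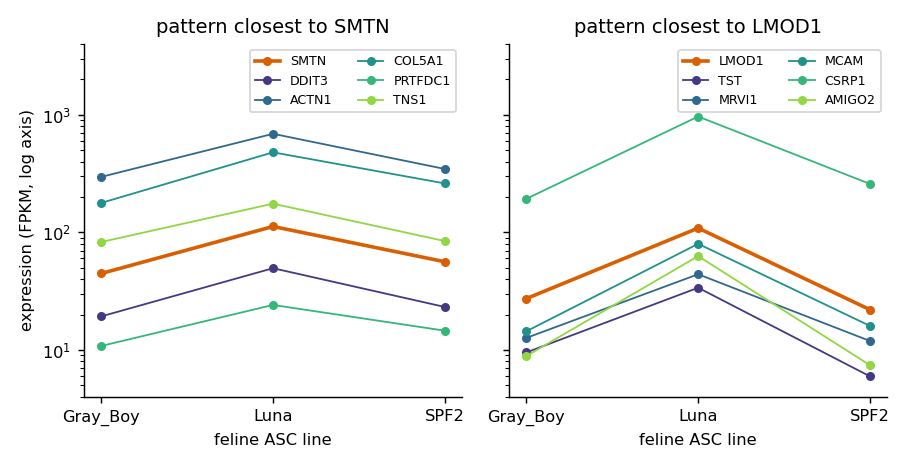
FPKM on a log axis (y axis) in the 3 feline ASC lines (x axis) for SMTN and LMOD1 (orange) and the 5 genes with a symbol closest to each in pattern. Lines join the values of 1 gene and imply no order of the cultures. The genes close to LMOD1 have a steeper peak in Luna than those close to SMTN.

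Genes beside the pair on the chromosome were mostly level between lines, as most genes were. Within 500 kb of SMTN, 8 other genes with a known position had a mean of at least 1 FPKM. Of these, 0 met the criterion in either direction. Among all genes with a symbol at this mean, 5.46% were higher in Luna and 4.86% lower, so 0 of 8 is near these shares. The log2 differences of the 8 ran from -0.36 for RNF185 to 0.58 for LIMK2, with a median of 0.18. The nearest, ENSFCAG00000001314, starts 507 bases beyond the end of SMTN and was at 218, 261 and 250 FPKM. All 10 neighbors with a position, including those near 0, lay on 1 side of SMTN, so the other side was not analysed here. PLA2G3 was at 1.53, 2.74 and 2.14 FPKM. EIF4ENIF1, PISD, SFI1 and ENSFCAG00000001322 had log2 differences of 0.24, -0.26, 0.02 and 0.20.

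Within 500 kb of LMOD1, 6 other genes had a mean of at least 1 FPKM and 1 of them, CSRP1, met the criterion as higher. The share of all genes with a symbol at this mean that were higher in Luna was 5.46%. CSRP1 lies 360 kb from LMOD1 (chromosome F1, 39770883 to 39782482) and had nearly the same log2 difference, 2.11 against 2.10. The measured genes between them were level. NAV1 was at 23.7, 25.9 and 29.0 FPKM, IPO9 at 23.3, 22.2 and 23.5 FPKM, and SHISA4, 6 kb from LMOD1, at 68.2, 69.3 and 70.3 FPKM. On the far side, RNPEP was at 48.0, 50.9 and 50.4 FPKM, and UBE2T was lower in Luna, at 10.1, 5.80 and 8.88 FPKM, without meeting the criterion other than with a pseudocount of 0.1 or after total scaling. In proportion to LMOD1, CSRP1 was at 7.06 times its FPKM in Gray_Boy, 8.89 times in Luna and 11.7 times in SPF2.

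**Figure D5:**
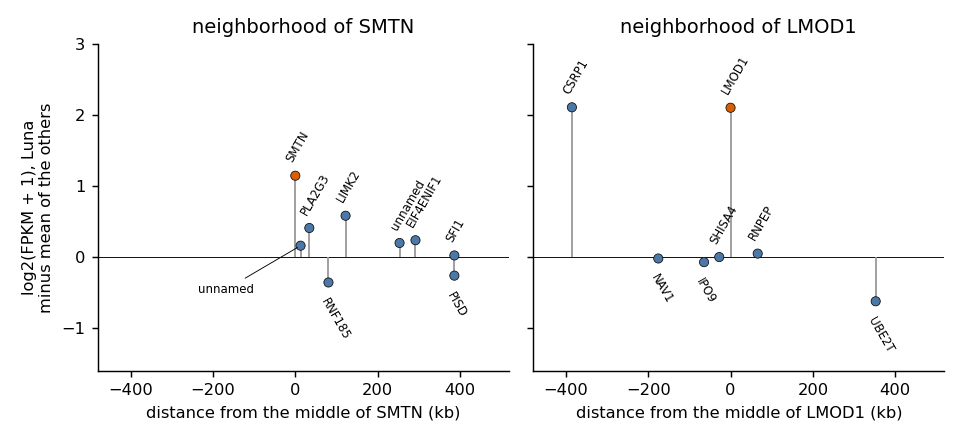
Difference of log2(FPKM + 1) between Luna and the mean of the other lines (y axis) for genes with a mean of at least 1 FPKM within 500 kb of SMTN or LMOD1 (orange), against the distance in kb between the middles of the loci (x axis). LMOD1 and CSRP1 stand near 2.10 with level genes between them, and SMTN stands at 1.15 above its neighbors. Genes without a known position are not shown, and unnamed marks genes without a symbol.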

How the data were processed

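Reads had been aligned by the authors with HISAT to the Felis Catus 8.0 assembly. Cufflinks then estimated the level of each gene and Cuffnorm scaled the 3 libraries to each other, which gave the FPKM that the authors deposited. The program versions and the annotation are not given in the sources used here. Libraries came from 200 ng of total RNA and 15 PCR cycles. Symbols (1811 genes) and positions (1997 genes) came from the supplementary table of the study, and no value was taken from it. FPKM are not counts, so no count test and no interval could be given. The FPKM values summed to 621797 to 688297 per line. Among genes under 0.15 FPKM, the commonest ratio (within 0.5%) was 0.911 for Gray_Boy over Luna, at 16.3% of genes. For SPF2 over Luna it was 0.711, at 6.27% of genes. Luna thus had the largest steps among its lowest values. The FPKM had been scaled between libraries, so these steps do not give the depth of a library by themselves.

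Differences were computed on log2(FPKM + 1) with Python 3.11.15, pandas 2.3.3 and numpy 2.4.6, checked on simulated lines, and drawn with matplotlib 3.10.9. The single group had 1 library per line, so no test was possible. The members, the 14 gene lists and the 1.5-fold criterion were chosen with earlier results of these data known. Named genes were the members, measured genes of the smooth muscle, stress fiber, signalling, TEAD and mural lists with a mean of at least 1 FPKM, the 3 highest of each other list, the 5 nearest patterns of each member, neighbors within 500 kb and genes at the limit. Other list genes near or at 0, and the remaining striated muscle and matrix genes, were named after their values were seen. Of the lists, 2 genes are not reported here and were left out of all counts over lists. The alternatives tried were a pseudocount of 0.1, scaling every line to a total of 1000000 (total scaling) or to equal sums, quantile normalization, other filters, a 2-fold criterion and leaving out lines.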

Additional observations from a re-analysis of the deposited data

How the results depend on the processing

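The excess of SMTN and LMOD1 in Luna kept its direction under a pseudocount of 0.1, total scaling, quantile normalization and leaving out Gray_Boy or SPF2, with values of 0.98 to 1.31 for SMTN and 1.95 to 2.25 for LMOD1 when a line was left out. Luna could not be left out, since the criterion needs it. Of 60 alternative values, 50 stayed within their tolerance and 10 moved. Only the excess values of SMTN and LMOD1 could have reversed, because the others are counts. Both genes were chosen for that excess, so its kept direction is a description. The 296 genes higher in Luna became 673 with a mean of at least 1 FPKM, 776 with no filter and 110 at 2-fold, and 455 without Gray_Boy and 467 without SPF2, because 1 ratio then sufficed. The 231 lower of 5324 genes became 460 of 6838 after total scaling, which also changed the genes past the minimum. With equal sums over all genes, added after seeing the data, 218 of the same 5324 genes were higher and 336 lower. With a mean of at least 15 FPKM in the other lines, an alternative chosen after seeing the data, 235 genes were higher. At 2-fold and a mean of at least 15 FPKM, 1 of 8 stress fiber genes and 1 of 3 mural genes were higher, beside 2.07% of all 5324 genes. Of 4 proliferation genes 0 were lower, and the share of all genes lower at 2-fold was not counted. At 1.5-fold, 3 proliferation genes with a mean of at least 15 FPKM were lower, and 5 with a mean of at least 1 FPKM and 5 with no filter. Of the 5 genes closest to LMOD1, 4 were shared with a pseudocount of 0.1. No paired analysis was possible because the samples form a single group. The fragments behind each value and the error within a line are unknown.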

Other observations

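Several named genes outside the lists were also higher in Luna by the 1.5-fold criterion, and are named here after their values were seen. The Notch ligand JAG1 was at 21.3 FPKM in Gray_Boy, 49.6 FPKM in Luna and 16.6 FPKM in SPF2, in the same direction as its receptor NOTCH3. Follistatin (FST), which binds activins, was at 13.6, 71.3 and 20.6 FPKM. COL4A5, a collagen chain of basement membranes, was at 5.94, 49.4 and 5.75 FPKM, and reached a mean of 15 FPKM only through Luna. In all, 24 of the 615 genes with a symbol and a mean of at least 15 FPKM met the criterion, and among them LMOD1 was in place 5 and SMTN in place 15 by the smaller ratio.

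PPP1R12B (0.628, 0.809 and 0.672 FPKM in Gray_Boy, Luna and SPF2) lies within 500 kb of LMOD1, which was noticed after its values were seen.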
